A study of Homo sapiens with 22 samples.

Results

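The baseline map of cohesin was described from untreated RAD21 ChIP-seq (chromatin immunoprecipitation sequencing) in 2 clones of hTERT RPE-1, a human line from the retinal pigment epithelium that telomerase keeps dividing. The members were all peaks of the DMSO RAD21 lists, 39713 in clone A2 and 37566 in clone D7, out of 341123 peaks in the 12 peak lists of the series. A peak was shared when it overlapped a peak of the other clone's list by at least 1 bp, and A2-only or D7-only otherwise. Both clones carry a degron on NIPBL: A2 has the genotype mCherry-P2A-FKBP12(F36V)-NIPBL and D7 has mGreenLantern-P2A-FKBP12(F36V)-NIPBL, and each line is 1 clone. Asynchronous cells had 24 h in DMSO, the solvent of the degrader dTAGV-1, and their chromatin carried a mouse NIH/3T3 spike-in of about 10%. For comparison, RAD21 lists of the same clones after 4 h and 24 h of dTAGV-1, PDS5A from D7 in DMSO for 24 h, STAG1 and STAG2 from D7 with no treatment on their labels, and CTCF and WAPL from wild-type cells were used. Each group had a single library. No replicate therefore checks any difference given here, and one between the clones cannot be told apart from one between 2 libraries. Intervals in parentheses are 95% Wilson intervals (Newcombe for differences) and cover counting error only.

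Cohesin is a ring of SMC1A, SMC3 and the kleisin RAD21 that holds DNA together and extrudes loops. It moves along chromatin with the help of NIPBL and is halted at sites bound by the zinc-finger protein CTCF, so RAD21 ChIP-seq peaks mostly mark places where moving cohesin pauses. Each complex also holds STAG1 or STAG2, and PDS5A and WAPL act in its pausing and release.

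The 2 lists were not made from equal libraries. The average genome-wide pileup, recovered from the lowest local background of each list, was 1.87 in A2 and 3.00 in D7. The narrowest called peak was 283 bp in A2 and 337 bp in D7. Narrowest peaks of the dTAGV-1 lists were 262 bp for A2 at 4 h, 344 bp for A2 at 24 h, 336 bp for D7 at 4 h and 317 bp for D7 at 24 h. They were 348 bp for STAG1, 310 bp for STAG2 and 353 bp for PDS5A. It was 256 bp for wild-type WAPL and 322 bp for wild-type CTCF.

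The promoter sequences that stand for the main classes of start-site peaks come from RefSeq (GRCh38.p14) and show the 250 bases before a transcription start, read 5′ to 3′ on the gene's strand. Shared summits are ranked here by their D7 fold. PPARD, a nuclear receptor gene, held the second strongest shared CTCF-overlapping summit in such a window. The strongest, at PTPRE, is not printed and had none of the matches marked below. ZBTB12 and TBL1XR1, a zinc-finger and a transcriptional corepressor gene, held the strongest shared summits with no CTCF peak. BCL11B, a zinc-finger transcription factor gene, held the strongest D7-only one. Capitals in these 4 mark matches on either strand to a CTCF-like motif (CC, any 3 bases, AG, any 2 bases, GGC) or to CCAGNNGGC, a shorter form chosen after the sequences were seen.
PPARD (chr6:35342308-35342557, plus strand): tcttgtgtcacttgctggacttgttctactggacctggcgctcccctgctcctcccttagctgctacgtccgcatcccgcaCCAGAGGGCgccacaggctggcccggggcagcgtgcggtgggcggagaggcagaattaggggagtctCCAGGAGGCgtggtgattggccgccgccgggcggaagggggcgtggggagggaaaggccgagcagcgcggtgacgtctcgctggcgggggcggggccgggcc
ZBTB12 (chr6:31902087-31902336, minus strand): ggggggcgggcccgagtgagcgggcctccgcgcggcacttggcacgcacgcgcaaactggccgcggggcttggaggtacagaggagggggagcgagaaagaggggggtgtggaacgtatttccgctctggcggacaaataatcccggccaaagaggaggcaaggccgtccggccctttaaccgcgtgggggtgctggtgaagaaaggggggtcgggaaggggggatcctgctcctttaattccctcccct
TBL1XR1 (chr3:177197483-177197732, minus strand): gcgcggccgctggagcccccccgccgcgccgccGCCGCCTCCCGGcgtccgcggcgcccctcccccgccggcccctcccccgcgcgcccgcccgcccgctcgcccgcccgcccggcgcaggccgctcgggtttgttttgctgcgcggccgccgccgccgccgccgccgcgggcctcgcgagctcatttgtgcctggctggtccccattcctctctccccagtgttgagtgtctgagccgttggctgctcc
BCL11B (chr14:99272198-99272447, minus strand): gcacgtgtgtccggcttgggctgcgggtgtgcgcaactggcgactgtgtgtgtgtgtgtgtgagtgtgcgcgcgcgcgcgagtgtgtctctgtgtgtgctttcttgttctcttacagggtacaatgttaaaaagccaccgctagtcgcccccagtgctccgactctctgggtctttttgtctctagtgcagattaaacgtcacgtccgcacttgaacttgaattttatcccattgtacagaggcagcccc

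The strongest A2-only summit in a promoter window lay at PCDHGB5, a clustered protocadherin gene encoding a cell-surface adhesion protein. It is shown with 3 neighbours of the same cluster: PCDHGB7 and PCDHGA11, where both clones had strong peaks, and PCDHGB6, where neither had one. Capitals mark GCCGC, any base, G, any 5 bases and CA, letters common to these promoters that were chosen after the sequences were seen.
PCDHGB7 (chr5:141417427-141417676, plus strand): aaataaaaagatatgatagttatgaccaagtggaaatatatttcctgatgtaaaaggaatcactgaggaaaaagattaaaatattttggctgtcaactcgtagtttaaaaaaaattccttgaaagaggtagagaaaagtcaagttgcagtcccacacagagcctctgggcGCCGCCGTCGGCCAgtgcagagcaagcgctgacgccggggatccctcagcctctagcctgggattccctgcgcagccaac
PCDHGA11 (chr5:141420801-141421050, plus strand): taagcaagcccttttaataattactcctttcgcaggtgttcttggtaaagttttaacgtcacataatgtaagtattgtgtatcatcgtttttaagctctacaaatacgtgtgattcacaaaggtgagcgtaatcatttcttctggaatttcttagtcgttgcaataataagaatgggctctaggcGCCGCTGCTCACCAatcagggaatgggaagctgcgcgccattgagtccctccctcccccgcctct
PCDHGB5 (chr5:141397697-141397946, plus strand): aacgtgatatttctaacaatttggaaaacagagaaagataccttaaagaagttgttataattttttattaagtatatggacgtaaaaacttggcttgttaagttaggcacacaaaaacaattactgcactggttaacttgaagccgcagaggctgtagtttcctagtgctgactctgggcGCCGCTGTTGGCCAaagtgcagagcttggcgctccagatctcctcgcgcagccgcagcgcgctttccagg
PCDHGB6 (chr5:141407771-141408020, plus strand): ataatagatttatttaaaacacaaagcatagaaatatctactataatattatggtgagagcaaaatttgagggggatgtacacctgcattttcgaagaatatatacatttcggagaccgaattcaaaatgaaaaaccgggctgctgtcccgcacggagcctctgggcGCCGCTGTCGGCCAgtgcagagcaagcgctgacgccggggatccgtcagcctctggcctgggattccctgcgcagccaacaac

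Most of the map was common to both clones, and clone-only peaks were mostly among the weaker ones. Of the A2 peaks, 31980 (80.5%, 80.1 to 80.9) lay in the D7 list, and 31719 of the D7 peaks (84.4%, 84.1 to 84.8) lay in the A2 list. This left 7733 A2-only and 5847 D7-only peaks. The authors' fold, the pileup of a summit over its local background, serves here to rank peaks within a list and is on no common scale between lists. It had a median of 16.6 in shared and 6.27 in A2-only peaks of the A2 list. In the D7 list the medians were 12.5 in shared and 4.25 in D7-only peaks. Clone-only peaks were also narrower, with a median width of 412 bp against 701 bp in A2 and 448 bp against 743 bp in D7. Taken by decile of fold within each list, the share of A2 peaks found in D7 rose from 51.7% in decile 1, the weakest, to 99.4% in decile 10. The share of D7 peaks found in A2 rose from 46.3% to 99.97%. D7 reached 97.6% by decile 6, where A2 stood at 87.7%, so A2 held more strong peaks that the other list lacked. There were 690 A2-only peaks in deciles 7 to 10 and 28 D7-only peaks in those deciles.

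**Figure D1:**
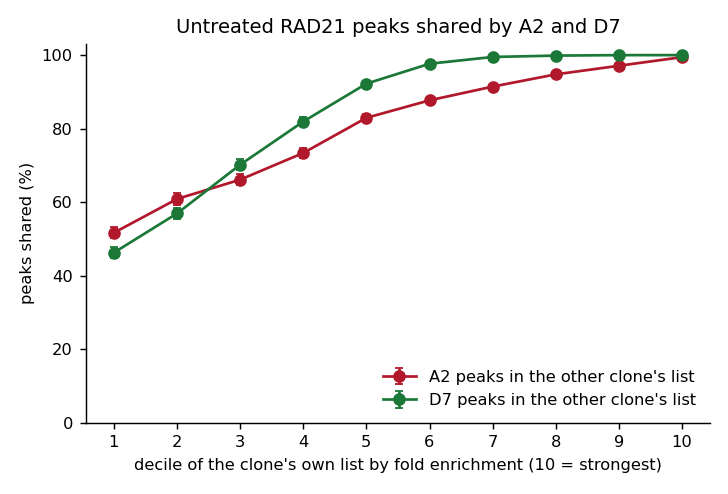
Share of untreated RAD21 peaks found in the other clone's list (y axis, %) by decile of fold within the clone's own list (x axis, 10 strongest). Points are shares and bars 95% Wilson intervals; A2 (red) rose from 51.7% to 99.4% and D7 (green) from 46.3% to 99.97%, and D7 lay above A2 from decile 3 on.

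Where 1 A2 peak met 1 D7 peak, both clones placed the summit almost at the same base. There were 31134 such pairs, with summits a median of 16 bp apart (quartiles 6 and 43 bp). The distance was 14 bp for pairs with CTCF in both lists and 90 bp for CTCF-free pairs. As a description over pairs, which come from the same 2 libraries and are not replicates, Pearson's r of log2 fold was 0.871 and Spearman's rho 0.866. Of the 3871 paired peaks in A2's decile 10, 70.6% were also in decile 10 of D7.

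**Figure D2:**
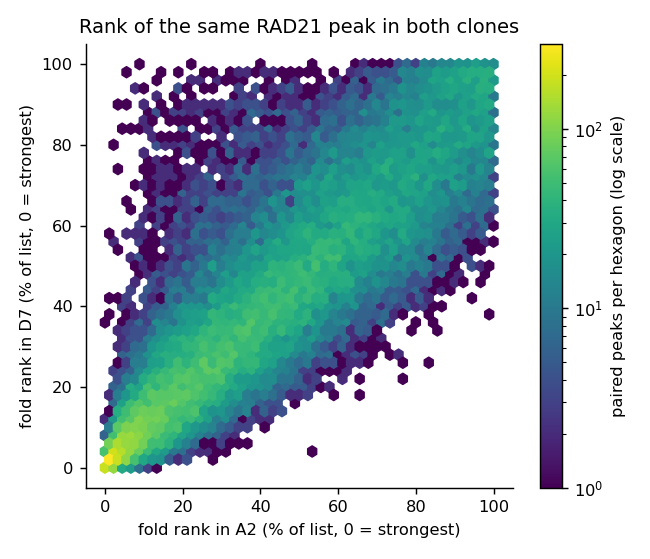
Fold rank of each of the 31134 paired RAD21 peaks in A2 (x axis) and D7 (y axis), as a percentage of the list with 0 the strongest; colour gives peaks per hexagon on a log scale. Most pairs lay along the diagonal (Spearman's rho 0.866), and pairs far from it lay mainly on the side ranked higher in A2.

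The 5 strongest shared pairs by the geometric mean of both folds all overlapped CTCF and a RAD21 peak in all 4 dTAGV-1 lists. The first lay inside ABTB2 (chr11:34173922-34175054 in A2), with a fold of 193 in A2 and 204 in D7. The second lay inside DIAPH1, which encodes an actin-nucleating formin (chr5:141560482-141561622), and was the strongest A2 peak of all with a fold of 269 against 138 in D7. It overlapped STAG1 and PDS5A but neither STAG2 nor WAPL, whereas the other 4 lay in every list compared. The third lay 2792 bp from FOXC2, a forkhead transcription factor gene (chr16:86563468-86564643), with folds of 207 and 177. The others lay 11685 bp from ENAH, an actin regulator (chr1:225474645-225475662, 158 and 156), and 23147 bp from ECE1, the endothelin-converting enzyme gene (chr1:21368015-21369268, 155 and 157).

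Shared pairs with no CTCF peak were far weaker. The strongest lay 89 bp from the start of ZBTB12, within C2 (chr6:31901878-31902716), with folds of 25.0 in A2 and 33.8 in D7. It overlapped all 4 dTAGV-1 RAD21 lists, STAG1, STAG2 and PDS5A. The next lay inside ZNF746 (37.8 and 19.6), 284536 bp from LRP1B (30.5 and 14.3), at the start of TBL1XR1 (14.7 and 17.0) and inside SUSD1 (13.1 and 18.5). The ZNF746 and TBL1XR1 peaks were in both dTAGV-1 lists of D7 and in neither of A2.

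Most positions overlapped CTCF, and the lists differed in their clone-only peaks. CTCF peaks overlapped 85.9% of all A2 and 83.1% of all D7 peaks. Among shared peaks the share was 89.6% (89.3 to 89.95) in A2 and 89.99% (89.6 to 90.3) in D7. It was 70.4% (69.4 to 71.5) of A2-only and 45.6% (44.3 to 46.9) of D7-only peaks, a difference of 24.8 percentage points (23.2 to 26.4). Since weak peaks overlapped CTCF less often, shared and clone-only peaks were also set against each other within deciles of fold. Shared peaks then stood 17.8 points above D7-only peaks in D7, down from 44.4 points (43.1 to 45.7). In A2 the difference of 19.2 points (18.1 to 20.3) became −0.49 points, an average over deciles that went both ways. In decile 1, CTCF overlapped 37.4% of shared and 30.4% of A2-only peaks, and in decile 3 76.5% and 83.7%. The shares also moved with the choice of peaks. Among peaks with −log10 q of at least 10, CTCF overlapped 95.1% of A2-only and 69.2% of D7-only peaks, and the upper 50% of the CTCF list overlapped 34.9% and 15.6% of all A2-only and D7-only peaks. A2-only stood above D7-only in each. The summit of a CTCF-overlapping RAD21 peak lay a median of 22 bp from the nearest CTCF summit in A2 and 26 bp in D7.

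Seen from the CTCF side, RAD21 occupancy followed the strength of the site. Of 59138 wild-type CTCF peaks, 48.3% had RAD21 in both clones, 9.17% in A2 alone, 4.55% in D7 alone and 38.0% in neither. The median CTCF fold of these classes was 45.8, 14.9, 9.53 and 5.76. In the weakest CTCF decile 10.0% of sites had RAD21 in both clones, in decile 6 52.3%, and in the strongest 97.1%. Sites with RAD21 in A2 alone were most frequent in the middle, at 16.8% of decile 6.

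Over all strengths, accessory subunits overlapped shared peaks more often than clone-only peaks. The STAG1, STAG2 and PDS5A lists come from D7 alone, and A2-only peaks are by definition absent from its untreated RAD21 list. Low shares among A2-only peaks therefore partly follow from how the classes were made, and no difference between the clones in these proteins was tested. STAG1 overlapped 75.02% of shared A2 peaks and 9.14% of A2-only peaks, against 62.2% of all A2 peaks. PDS5A overlapped 61.2% and 10.2% (all, 51.3%), and STAG2 56.8% and 23.3% (all, 50.3%). At equal strength in A2 the STAG2 order changed. STAG2 overlapped 12.7% of shared and 9.02% of A2-only peaks in decile 1, and 72.25% and 80.1% in decile 7. STAG1 and PDS5A were more frequent in shared peaks in both of these deciles. In D7, STAG1 overlapped 75.2% of shared and 22.3% of D7-only peaks (all, 66.9%), PDS5A 61.4% and 25.1% (all, 55.8%), and STAG2 57.2% and 11.3% (all, 50.0%). Over all strengths A2-only peaks thus overlapped STAG2 more often than STAG1, and D7-only peaks STAG1 more often than STAG2. The order of the A2-only shares depended on strength, with STAG1 at 12.8% and STAG2 at 9.02% in decile 1, 10.2% and 10.0% in decile 2, and 5.26% and 80.1% in decile 7. WAPL, with 2667 peaks in all, overlapped 8.21% of shared and 0.207% of A2-only peaks (all, 6.65%), and 8.26% of shared and 0.0342% of D7-only peaks (all, 6.98%).

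A2-only peaks recurred in treated lists of both clones. Of all 7733, 34.7% were in A2 after 4 h of dTAGV-1, 18.3% in A2 after 24 h, 26.2% in D7 after 4 h and 30.8% in D7 after 24 h, and 3019 (39.0%) were in none of these lists. Strong ones were distributed otherwise. Deciles 7 to 10 were singled out after their values were seen, so these shares are a description. Of the 690 peaks, 99.0% overlapped RAD21 in A2 after 4 h and 10.9% in A2 after 24 h, against 62.2% and 64.0% of all A2 peaks. Of the same peaks, 9.42% lay in the D7 list at 4 h and 90.3% in that at 24 h, against 74.6% and 68.5% of all A2 peaks. STAG2 of D7 held 86.5% of them, STAG1 4.49%, PDS5A 2.90% and wild-type CTCF 99.9%. The combination of A2 at 4 h and D7 at 24 h, and neither of the other 2 treated lists, was found in 550 of the 690. Strong shared A2 peaks of the same deciles, 15206 in number, were in each of the 4 treated RAD21 lists at 95.4% or more, and in STAG1 at 92.1%. Among the RAD21, STAG and PDS5A lists, those that held most of the strong A2-only peaks had narrowest peaks of 262 to 317 bp, and those that lacked most of them 336 to 353 bp. WAPL, with the narrowest minimum and the fewest peaks, held 14 of the 690 (2.03%). The part of this difference in the result was not tested.

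**Figure D3:**
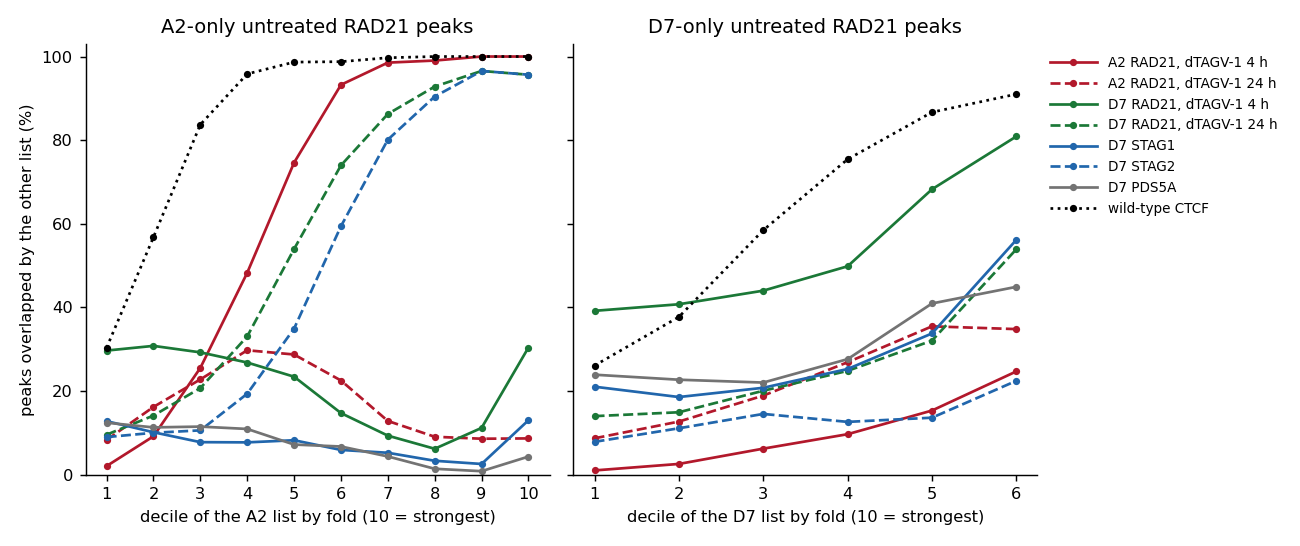
Share of A2-only (left) and D7-only (right) untreated RAD21 peaks overlapped by each other list (y axis, %) by decile of fold in their own list (x axis; D7 shown to decile 6, above which it held 28 peaks). In A2, the lines for A2 at 4 h, D7 at 24 h and STAG2 climbed above 95% by decile 9, while A2 at 24 h, D7 at 4 h, STAG1 and PDS5A stayed under 12% there.

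The A2-only peaks named here are among the strong ones just described, so they illustrate the split and are no check on it. Among the 5 strongest A2-only peaks, those 110660 bp from ARHGAP42 (chr11:100575184-100577116, fold 71.5), inside MRPS35, a mitochondrial ribosomal protein gene (chr12:27732421-27733719, 62.1), and at chr13:64471691-64472584 (60.9) were in A2 at 4 h, D7 at 24 h, STAG2 and CTCF, and in neither A2 at 24 h nor D7 at 4 h nor STAG1. Of these, the MRPS35 peak was also in PDS5A. A peak 333778 bp from FSTL5 (chr4:162497346-162498214, 62.9) was also in D7 at 4 h and STAG1. The strongest of the 5 (chr16:49350077-49351100, 75.4) did not show the split. It was in both treated A2 lists and CTCF, and in neither treated D7 list nor STAG2. The pairs that ranked far higher in A2 included peaks inside the autophagy genes ATG5 (chr6:106222969-106223936, fold 60.3 in A2 and 3.00 in D7, ranks at 5.66% and 97.1% of the lists) and VMP1 (chr17:59753188-59754130, 50.9 and 2.69, ranks at 8.97% and 98.9%). Both were in A2 at 4 h, D7 at 24 h and STAG2 and absent from the other treated RAD21 lists, STAG1 and PDS5A. A pair 160550 bp from NT5C1B-RDH14 (76.0 in A2 and 3.75 in D7) was in all 4 treated lists. In the other direction, a peak inside IL1R2, the interleukin-1 decoy receptor gene (chr2:102006126-102006826), had a fold of 22.3 in D7 and 5.31 in A2 (ranks at 25.4% and 84.3%), and one 65207 bp from SOX6 (chr11:15900912-15901729) had 26.1 in D7 and 6.53 in A2.

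These peaks were unevenly spread over the genome. On chromosome 13, 10.1% of strong A2 peaks were A2-only, on chromosome 4 8.42% and on chromosome 7 7.94%. On chromosome 20 the share was 0.241% and on chromosome 19 0.201%, which was 1 of 498 peaks. The number of D7 peaks relative to A2 peaks ran from 0.874 on chromosome 13 and 0.900 on chromosomes 4 and X to 1.03 on chromosomes 19 and 22 and 1.05 on chromosome 21. At −log10 q of at least 10 the ratio was 0.997 on chromosome 21, below 1, and 1.08 on chromosomes 19 and 22. The X chromosome combined a low ratio with a low strong A2-only share, 1.85%. Over the 23 chromosomes this ratio rose with the density of protein-coding genes (Pearson's r 0.664, Spearman's rho 0.781, and rho 0.715 at −log10 q of at least 10) and the strong A2-only share fell with it (rho −0.67). The points share the same 2 libraries and differ in base composition, so no test is given. The nearest promoter window within 25 kb of a strong A2-only peak had a median GC content of 51.0% (209 of 650 peaks had one), against 59.7% for strong shared A2 peaks (7503 of 14496). The recovered local background, relative to all peaks of the list, was 1.09 in A2 and 1.23 in D7 on chromosome 19, and 0.949 in A2 and 0.888 in D7 on chromosome 4. The part of base composition in the difference between the lists was not tested.

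**Figure D4:**
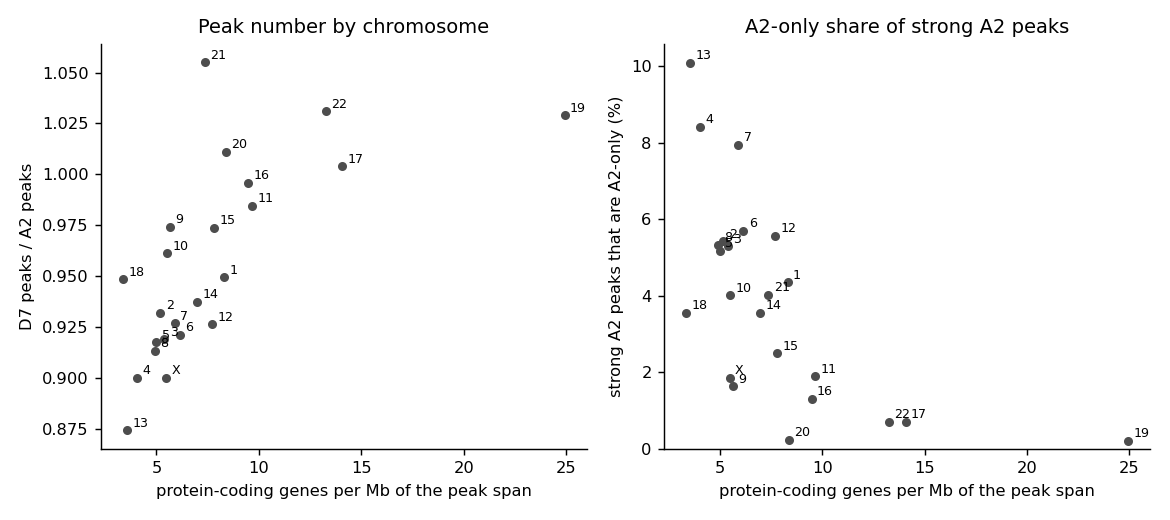
Each point is a chromosome, labelled by name, placed by protein-coding genes per Mb (x axis). Left, D7 peaks divided by A2 peaks, from 0.874 (chromosome 13) to 1.05 (chromosome 21); right, the share of strong A2 peaks (deciles 7 to 10) that were A2-only, from 0.201% (chromosome 19) to 10.1% (chromosome 13).

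Few clone-only peaks kept to their clone across treatments. Peaks present in all 3 RAD21 lists of one clone and in none of the other numbered 217 of the 7733 A2-only peaks (2.81%) and 459 of the 5847 D7-only peaks (7.85%). The opposite pattern, a peak in both treated lists of the other clone and in neither of its own, was nearly as frequent among A2-only peaks (189, 2.44%), and rarer among D7-only peaks (21, 0.359%). All 6 RAD21 lists were used to choose the sets that kept to a clone, and the other proteins were not. STAG1, STAG2 and PDS5A were profiled in D7 alone and belong to or act with the same complex. Their counts therefore partly follow from that choice and are no independent check. CTCF of wild-type cells overlapped 89.4% of the A2 set and 50.3% of the D7 set, against 70.4% of all A2-only and 45.6% of all D7-only peaks. The lists of D7 proteins overlapped the A2 set rarely, STAG1 at 7, STAG2 at 19 and PDS5A at 9 of the 217 peaks. These were 3.23%, 8.76% and 4.15%, against 9.14%, 23.3% and 10.2% of all A2-only peaks. The same lists overlapped the D7 set more often, STAG1 at 205, PDS5A at 163 and STAG2 at 56 of the 459 peaks. These were 44.7%, 35.5% and 12.2%, against 22.3%, 25.1% and 11.3% of all D7-only peaks, so STAG2 stood near its share. The strongest in A2 lay 23140 bp from C16orf78 (chr16:49350077-49351100, fold 75.4), also the strongest A2-only peak of all. It was followed by peaks 84510 bp from IQUB (chr7:123367261-123368091, 40.3), 171115 bp from CADM2, a synaptic adhesion gene (chr3:86245169-86245928, 39.0), and inside AUTS2 (chr7:70697991-70698771, 35.3). In D7, 2 peaks in the desert beyond CADM1 led (chr11:116077758-116078510, fold 28.1, and chr11:115869593-115870512, 22.3). A peak 38552 bp from STEAP4 (chr7:88345139-88345731, 20.5) and one 145719 bp from NCAM2 (chr21:21688712-21689479, 19.8) were next among those described. The strongest D7-only peak, inside ANKFN1 (chr17:56125815-56127182, 44.2), was not in this set, since A2 had it after 24 h of dTAGV-1.

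Some of these peaks sat close together. Runs of at least 3 with gaps of at most 1 Mb were listed after the values were seen, 12 in A2 and 20 in D7. The other clone's DMSO list was empty in 5 of the A2 runs and 3 of the D7 runs. In the D7 runs the medians were 20.5 D7 and 19 A2 peaks, and in the A2 runs 6 A2 peaks and 1 D7 peak. Of the stretches described next, all but one were empty in the other clone. At chr16:48861946-49351100, which holds the cerebellin gene CBLN1, A2 had 6 DMSO peaks, 6 at 4 h and 5 at 24 h, and D7 had 0 in each of its 3 RAD21 lists. Wild-type cells had 9 CTCF peaks there, and the D7 lists of STAG1, STAG2 and PDS5A had 0, 0 and 1 peaks. A stretch with no protein-coding gene at chr5:29218054-29812377 had 4 peaks in each A2 list and 0 in each D7 list, with 5 CTCF peaks in wild-type cells. A stretch at chr15:28975543-29140335, over APBA2 and ENTREP2, had 5 A2 peaks in DMSO, 3 at 4 h and 4 at 24 h, and 0 in every D7 RAD21 list. At chr7:117993420-119482549, 14 A2 peaks faced 2 D7 peaks. In the opposite direction, the stretch overlapping NCAM2, a neural adhesion gene (chr21:20999523-21922286), had 4, 5 and 6 peaks in the D7 lists and 0 in each A2 list. STAG2 of D7 had 6 peaks there and STAG1 3, and wild-type cells had 8 CTCF peaks. A stretch with no protein-coding gene at chr4:23337241-23681570 had 5, 5 and 4 peaks in D7 and 0 in A2. One overlapping COBL (chr7:51009963-51046309) had 4, 5 and 3 against 0, with no CTCF peak in wild-type cells. Counts of the RAD21 lists in such runs are partly fixed by the choice. The STAG and PDS5A counts, from D7 and the same complex or its partners, partly follow from it too. Wild-type CTCF had no part in the choice.

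The D7-only peaks themselves were in the treated D7 lists at 44.2% after 4 h and 18.5% after 24 h, against 80.0% and 68.8% of all D7 peaks. Of these, 4.62% were in the A2 list at 4 h and 15.7% in that at 24 h, against 59.2% and 66.1% of all D7 peaks. All 28 strong D7-only peaks were in D7 at 4 h and 22 in D7 at 24 h, while 4 were in A2 at 4 h and 8 in A2 at 24 h.

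As a whole, D7-only peaks lay more often at promoters than A2-only peaks. Within 1 kb of a protein-coding transcription start were 12.4% of all A2 summits and 14.2% of all D7 summits, counted over chromosomes with promoter entries. Among A2-only peaks the share was 9.77% (9.11 to 10.5), and among D7-only peaks 21.8% (20.7 to 22.9), a difference of 11.99 points (10.7 to 13.3). At −log10 q of at least 10 the shares were 2.77% and 13.6%. Shared CTCF-free peaks had the highest share, 31.8% in A2, against 10.8% of shared CTCF-overlapping peaks. In D7, D7-only peaks stood above shared ones where CTCF overlapped (19.7% against 10.8%) and below them where it did not (23.5% against 31.5%). A2-only peaks stood below shared ones in both, at 6.15% with CTCF and 18.5% without. The longer CTCF-like motif occurred in 10.6% of all 34961 promoter windows of 300 bases. It occurred in 36.8% of A2 and 35.3% of D7 windows holding a shared CTCF-overlapping summit, and in 10.4% and 12.5% of those holding a shared CTCF-free one. Windows with clone-only CTCF-overlapping summits had it at 31.4% in A2 and 24.4% in D7. The shorter CCAGNNGGC, whose matches can overlap those of the first, occurred in 11.4% of all windows and in 23.9% of A2 windows with a shared CTCF-overlapping summit. The shared CTCF-overlapping summit strongest by D7 fold, at PTPRE, had folds of 120 in A2 and 160 in D7 and no match to either form. PPARD had 2 matches to the shorter form, with a D7 summit 148 bases before the start and folds of 132 in A2 and 135 in D7. BCL11B had no match; its D7-only peak, with a fold of 10.99, lay 87 bases before the start and was in both treated D7 lists, CTCF, STAG1 and PDS5A, and in no A2 list.

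By gene, 29.5% of 15812 protein-coding genes had a RAD21 summit within 1 kb of a start in A2 and 32.9% in D7. Both clones had one at 25.1% of genes, A2 and not D7 at 4.40%, D7 and not A2 at 7.73%, and neither at 62.7%. A list of 23 YAP and AP-1 genes mixes targets with the factors and their regulators, such as YAP1, LATS2, FOS and JUN. Of its 17 genes with a promoter entry, 12 had a start-site peak in both clones (70.6%, against 25.1% of all genes). THBS1, a matrix glycoprotein, was strongest with folds of 81.4 in A2 and 47.6 in D7. CCN2, a matricellular growth regulator, had 13.4 and 17.6, and the LIM-domain gene AJUBA 16.6 and 13.7. FOSB and AXL had a peak in D7 only, with folds of 5.25 and 3.14, and JUN, ATF3 and TGFBI had none. Of 26 retinal pigment epithelium identity genes, 20 had a promoter entry, and 6 of these had a peak in both clones (30.0%), near the share of all genes. Among them were RDH5, a visual-cycle dehydrogenase (35.9 and 48.7), and MERTK, the receptor for photoreceptor debris (33.1 and 22.6), while RPE65, the visual-cycle isomerase, and TYR had none.

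Of cohesin's own genes, 8 of 9 core subunits and 11 of 13 regulators had a promoter entry, and RAD21 itself had none. Both clones had a start-site peak at 3 of 8 core subunits (37.5%) and 4 of 11 regulators (36.4%), against 25.1% of all genes. STAG1 (56.5 in A2, 71.1 in D7), STAG2 (36.8 and 60.9) and the release regulator PDS5B (45.1 and 59.4) led. NIPBL itself had folds of 5.51 in A2, in decile 2 of that list, and 8.47 in D7, in decile 5. SMC1A, WAPL and PDS5A had no start-site peak. RAD21L1, a meiotic kleisin gene, had a peak in A2 alone (6.27). Ribosomal protein genes had one in both clones at 14 of 69 (20.3%), near the 25.1% of all genes, led by RPL10A (38.7 and 42.0) and RPS26 (20.8 and 30.6). Among HOX genes with a promoter entry, 1 of 9 in the HOXA cluster had a peak, HOXA3 in A2 (7.10), and none of 8 in the HOXD cluster did. Of all protein-coding genes, 62.7% had none in either clone. The 2 HOXC genes, the 1 HOXB gene and the 1 gene of the H19 and IGF2 pair with an entry had none, and nothing is said here of other genes of these clusters.

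Clustered protocadherins varied along one locus of chromosome 5. These genes are arrayed in tandem, and most variable exons have their own promoter with a CTCF site. None of 13 PCDHA starts had a RAD21 peak in either clone, where 62.7% of all genes had none. Of 14 PCDHB starts, PCDHB13 and PCDHB14 had one in the untreated list of A2 alone (5.85 and 8.63), 14.3% against 4.40% of all genes. The PCDHB14 peak was also in both treated D7 RAD21 lists and in STAG2 and PDS5A of D7. Of 20 PCDHG starts, 9 had a peak in both clones, 3 in A2 alone, 1 in D7 alone and 7 in neither. These were 45.0%, 15.0%, 5.00% and 35.0%, against 25.1%, 4.40%, 7.73% and 62.7% of all genes. The strongest were PCDHGA11, with a fold of 70.6 in A2 and 56.8 in D7, and PCDHGB7, with 42.2 and 63.9, followed by PCDHGC3 with 24.7 and 19.6. Summits lay 48 and 37 bases before the PCDHGA11 start, and 68 and 54 bases before that of PCDHGB7. At PCDHGB5 the A2 peak had a fold of 23.3, with a summit 81 bases before the start. It was in both treated A2 lists and in no D7 list of RAD21, STAG1, STAG2 or PDS5A, while wild-type CTCF had a peak there. PCDHGA3 (6.36) and PCDHGA4 (7.53) were A2-only and PCDHGB2 (5.595) D7-only, and PCDHGA4 and PCDHGB2 were each found in a treated list of the other clone. The letters GCCGC, any base, G, any 5 bases and CA were taken from these promoters, so their frequency in the cluster is no finding. They stood on either strand in 3.33% of all windows. They were present at PCDHGB7, PCDHGA11 and PCDHGB5 and also at PCDHGB6, where no RAD21 list of either untreated clone had a peak within 1 kb.

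**Figure D5:**
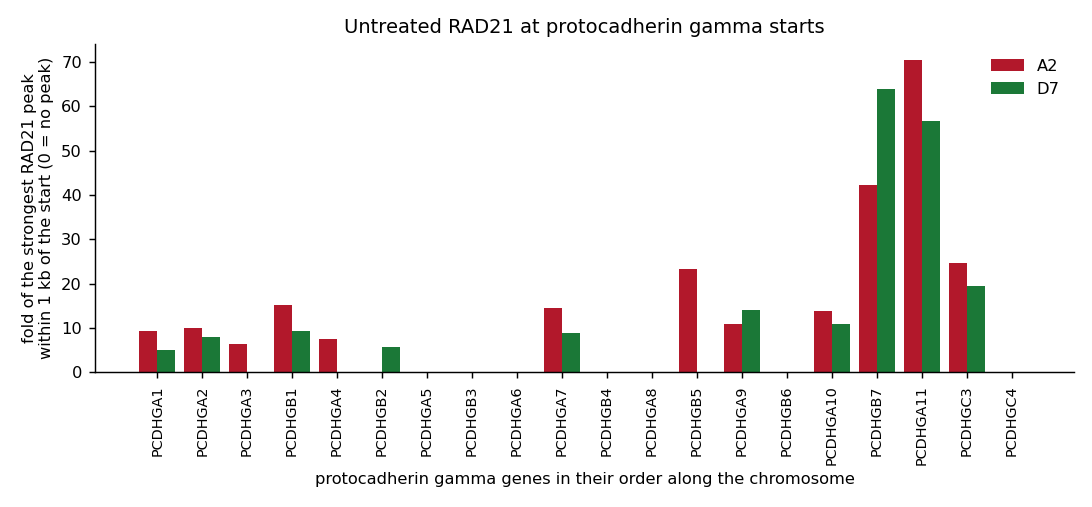
Fold of the strongest untreated RAD21 peak within 1 kb of each of 20 PCDHG starts (y axis, 0 for no peak), A2 in red and D7 in green, in chromosomal order with the cluster's 3′ end at the right. The highest bars are PCDHGA11 and PCDHGB7 in both clones, and PCDHGB5 has a bar in A2 alone (23.3).

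Within gene bodies, 8184 of 19974 protein-coding genes (41.0%) held at least 1 shared peak. KCNMA1, a calcium-activated potassium channel gene of 768 kb, held 23, with 4 A2-only and 2 D7-only peaks. IQCJ-SCHIP1 and NTM held 19 each and PDE1C and RAD51B, a homologous recombination gene, 18 each. Per length, among 3351 genes of at least 100 kb with a median of 0.94 shared peaks per 100 kb, SMAD3, the mediator of TGF-beta signals, was densest with 11 in 130 kb (8.49 per 100 kb). ERGIC1 had 7.60, NFIX 6.78, MYO18A 6.41 and PCDHGA9, whose body spans other PCDHG promoters, 6.35.

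Spacing was nearly the same in both clones. The median distance between neighbouring summits was 34.7 kb in A2 (quartiles 11.9 and 78.8 kb) and 34.3 kb in D7 (12.1 and 79.4 kb). Shared peaks alone were 41.2 kb apart in A2 and 41.8 kb in D7, and shared CTCF-overlapping peaks 46.9 and 47.2 kb. CTCF-free peaks were 140 kb apart in A2 and 110 kb in D7. From the nearest shared CTCF-overlapping peak, D7-only CTCF-free peaks lay a median of 21.8 kb and shared CTCF-free D7 peaks 22.6 kb, and D7-only CTCF-overlapping peaks 23.1 kb. In A2 the distances were 21.9 kb for A2-only CTCF-free, 21.7 kb for shared CTCF-free and 30.5 kb for A2-only CTCF-overlapping peaks.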

How the data were processed

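Peak lists of 12 immunoprecipitations (RAD21, CTCF, STAG1, STAG2, PDS5A, WAPL and HA) were in narrowPeak layout, with 1 list per library. The fold is a ratio of summit pileup to local background, deposited by the authors, and the lists also hold −log10 p, −log10 q and a score that the authors deposited. The submitters' processing notes name BWA, SAMtools, Picard, MACS2, bedtools, deepTools and the builds hg38 and mm10; versions and filters are not given in the sources used here. Depth is not in the lists. Pileups and backgrounds were solved from fold and −log10 p (pseudocount of 1) for peaks with −log10 p under 250. They came out whole, within 0.001 on the −log10 p scale, for 100.0% of them. Starts are counted from 1.

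Overlaps of at least 1 bp, intervals and quartiles were computed in Python 3.11.15 with numpy 2.4.6, pandas 2.3.3 and scipy 1.17.1, and the overlap and solving steps were tested on simulated data. The RefSeq table (GRCh38.p14) gave 19974 gene bodies, and its promoter entries gave starts for 15812 genes on 22 of 23 chromosomes. Peaks of chromosome 8 were left out of start-site shares. The HA list was not used. Members and gene lists were chosen with earlier results of these data known. Named peaks were the 5 strongest shared pairs, 5 without CTCF, 5 A2-only, 5 D7-only and 3 pairs each way with the largest rank difference, and named genes the 5 with most shared peaks, in number and per length. Some chromosome 8 peaks among them are not described here. Each alternative changed 1 choice; their effect is given at the end.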

Additional observations from a re-analysis of the deposited data

How the results depend on the processing

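With 1 library per group, the intervals cover counting error only, and small moves exceed them. Error between libraries was not measured. No paired analysis was possible because each group holds 1 library. One difference reversed: shared minus A2-only CTCF overlap went from 19.2 to −0.49 points within deciles of fold, where the D7 difference went from 44.4 to 17.8.

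The share of A2 peaks in D7 and of D7 peaks in A2 was 74.8% and 79.0% with summits within 200 bp, 75.3% and 79.6% with reciprocal overlap of at least 50%, and 83.0% and 86.0% at −log10 q ≥ 10. It was 79.4% and 85.9% with D7 pileups scaled by 0.624, the ratio of the lowest backgrounds; that of the median backgrounds was 0.483, so depth was matched in 1 measure only. The rho of the D7 to A2 ratio with gene density was 0.715 at −log10 q ≥ 10, an alternative chosen after seeing the data. The A2 share was 84.4% among the strongest 20000 of both lists. Counting any RAD21 list of the other clone, an alternative chosen after seeing the data, gave 89.9% and 87.2%.

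CTCF overlap of A2 shared, A2-only, D7 shared and D7-only peaks was 85.6%, 67.8%, 84.7% and 39.5% with summits within 200 bp. It was 96.7%, 95.1%, 94.0% and 69.2% at −log10 q ≥ 10, and 74.5%, 34.9%, 74.8% and 15.6% with the upper 50% of the CTCF list.

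A2-only peaks with −log10 q ≥ 10 were in A2 at 4 h and 24 h at 61.1% and 24.2%, and in D7 at 23.3% and 48.7%. D7-only peaks were in A2 at 8.31% and 24.0%, and in D7 at 56.7% and 27.0%. With summits within 200 bp, A2-only peaks were in A2 at 24 h at 16.8% and D7 at 4 h at 22.1%, and D7-only peaks in A2 at 24 h at 14.1% and D7 at 36.3% and 15.96%.

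Start-site shares of A2, A2-only, D7 and D7-only peaks were 15.9%, 12.7%, 17.8% and 25.2% within 2.5 kb, and 8.69%, 2.77%, 11.3% and 13.6% at −log10 q ≥ 10. At either gene end, A2, A2-only and D7 had 14.4%, 11.3% and 16.3%. Median spacing in A2 and D7 was 45.2 and 43.0 kb at −log10 q ≥ 10, 41.2 and 41.8 kb for shared peaks and 41.4 and 42.9 kb for CTCF-overlapping peaks. The other 7 values stayed within their intervals.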

Other observations

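The recovered local background of RAD21 peaks also differed along chromosomes in both clones. On chromosome 10, peaks beyond the midpoint of the peak span had a background of 1.49 times the list median in A2 and 1.58 times in D7, and peaks before it 0.949 and 0.933. hTERT RPE-1 is known to carry extra material of the long arm of chromosome 10. On chromosome 12 the order was the opposite, with 1.51 in A2 and 1.40 in D7 before the midpoint and 0.954 and 0.977 beyond it. The fold of RAD21 peaks in those parts was 11.9 in A2 and 8.90 in D7 on chromosome 10 and 13.3 and 10.1 on chromosome 12 as medians, against 13.2 and 9.78 for all peaks. On chromosome 21 before the midpoint, where NCAM2 lies, the background was 0.877 in A2 (104 peaks) and 0.691 in D7 (93 peaks). RAD21 peaks of the X chromosome had 0.885 and 0.853.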
